A study of Mus musculus with 9 samples.

Results

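The genes examined were 10 immediate-early response genes, Fos, Fosb, Fosl2, Jun, Junb, Jund, Egr1, Atf3, Dusp1 and Nr4a1, taken by gene symbol from the 21950 genes with deposited mRNA values. The tissue was the renal cortex of male C57BL/KsJ mice at 15 weeks of age, with 1 library per mouse and 3 mice in each of 3 groups. The control group was db/m littermates, which carry a heterozygous mutation (db) in the leptin receptor, and received vehicle. The dbdb group was db/db mice (BKS.Cg-Dock7m+/+Leprdb/Nju), homozygous for that mutation and diabetic, and also received vehicle. The dbR group was db/db mice given 20 mg/kg/day of rosiglitazone, which activates the nuclear receptor PPARγ. Vehicle or drug was given by gavage for 8 weeks, from 7 weeks of age. The db mutation is present in every cell of the animal, so kidney and systemic effects cannot be told apart in these groups. Abundance is given as FPKM (read pairs per kilobase of transcript, scaled to the mapped pairs of the library), summed over the transcripts of each gene.

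Immediate-early genes are switched on within minutes of a stimulus, from transcription factors that are already in the cell and without new protein synthesis. Fos and Jun proteins pair through leucine zippers to form the transcription factor AP-1, which binds DNA at TGANTCA, and Atf3 pairs with Jun proteins. Egr1 and Nr4a1 are a zinc-finger factor and an orphan nuclear receptor, whereas Dusp1 is a nuclear phosphatase that switches off the p38, JNK and ERK kinases which drive these promoters. In the kidney the family is known for its brisk response to ischemia, to tubular injury and to the handling of tissue.

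The sequences just upstream of 4 of the genes are shown with exact matches to a few response elements marked. Variants of these elements, and sites further upstream than 250 bases, were not searched for. Dusp1, Nr4a1 and Jun are shown as the 3 members with the highest log2 fold changes among those called at gene level in dbdb vs. control, and Fos as the prototype of the family. Each sequence runs 5′ to 3′ on the strand of the gene, is 150 bases long and ends where the annotated first exon begins. It comes from RefSeq on GRCm38.p6. Capitals mark TGACGTCA (the cAMP response element), its shorter form TGACG, GCGGGGGCG (a site bound by Egr1) and TATAAA on either strand, so that CGTCA and CGCCCCCGC are the same elements read from the other strand. The Dusp1 stretch is chr17:26508520-26508669 (minus strand), that of Nr4a1 chr15:101266696-101266845 (plus strand), that of Jun chr4:95052223-95052372 (minus strand) and that of Fos chr12:85473740-85473889 (plus strand).
Dusp1: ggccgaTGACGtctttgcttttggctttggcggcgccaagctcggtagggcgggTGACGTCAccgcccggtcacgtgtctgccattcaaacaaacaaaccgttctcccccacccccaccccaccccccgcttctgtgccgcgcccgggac
Nr4a1: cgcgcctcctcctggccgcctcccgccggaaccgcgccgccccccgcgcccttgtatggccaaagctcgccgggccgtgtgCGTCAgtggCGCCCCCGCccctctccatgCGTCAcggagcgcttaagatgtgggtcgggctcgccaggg
Jun: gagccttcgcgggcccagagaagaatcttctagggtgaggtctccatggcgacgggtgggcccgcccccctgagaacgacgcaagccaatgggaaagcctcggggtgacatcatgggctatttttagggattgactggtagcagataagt
Fos: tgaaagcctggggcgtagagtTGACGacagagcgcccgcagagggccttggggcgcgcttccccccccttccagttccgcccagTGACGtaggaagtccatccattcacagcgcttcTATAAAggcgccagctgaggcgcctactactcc
Over the 250 bases before the RefSeq start, TGACGTCA was found in Dusp1 alone of the 9 members with an entry, and in 1.55% of the 32851 promoters of the table. The shorter TGACG, which TGACGTCA contains, was found in 6 of the 9 (Fos, Fosb, Junb, Atf3, Dusp1 and Nr4a1) and in 17.8% of all promoters, although the match of Atf3 lies within an annotated exon of that gene. GCGGGGGCG was found in Fosl2, Fosb and Nr4a1 and in 2.57% of all promoters, and its match in Fosl2 also lies within an exon. TATAAA was found in Fos and in 12.4% of all promoters. TGANTCA and the CArG box, the core of the serum response element, were found in 0 of the 9 within this window, against 6.75% and 1.47% of all promoters. The Jun window held no exact match to any of these motifs. The Jund entry of the table starts more than 1 kb upstream of the transcript that was measured, so its window belongs to another start. Egr1 is named only.

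The estimated depth was between 26.5 and 32.8 M read pairs per library, from the size of the steps between low FPKM values. Mitochondrial transcripts held 26.9% to 32.8% of the mRNA FPKM. Marker genes of renal tubule and of podocytes were expressed in all 9 libraries, with sums that differed between groups and are given with the other cell types. A single library stood apart in a chaperone gene, as Hsp90aa1 was at 2.14 FPKM in Control 3 and at 98.0 to 199 FPKM in the other 8 libraries.

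The members spanned a wide range of abundance, per length of transcript. Dusp1 had the highest level, with a mean over the 9 libraries of 37.2 FPKM, above 90.6% of all genes, followed by Jund with 21.9 FPKM. Jun (12.3), Junb (5.44), Fosl2 (3.44), Nr4a1 (2.05) and Egr1 (1.73) came next, and Fos (0.533), Atf3 (0.393) and Fosb (0.0562) were under 1 FPKM. Over the 9 libraries, neighbours in this order had overlapping ranges, other than Jun and Junb, and Atf3 and Fosb, which did not overlap. Estimated from the same steps, Dusp1 rested on 801 to 3051 read pairs per library and Jun on 672 to 1915, whereas Fos rested on 12 to 58, Atf3 on 7 to 40 and Fosb on 2 to 9. The values of the last 3 therefore carry a large counting error, and Fosb fell below the minimum mean of 0.1 FPKM and was not tested.

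**Figure D1:**
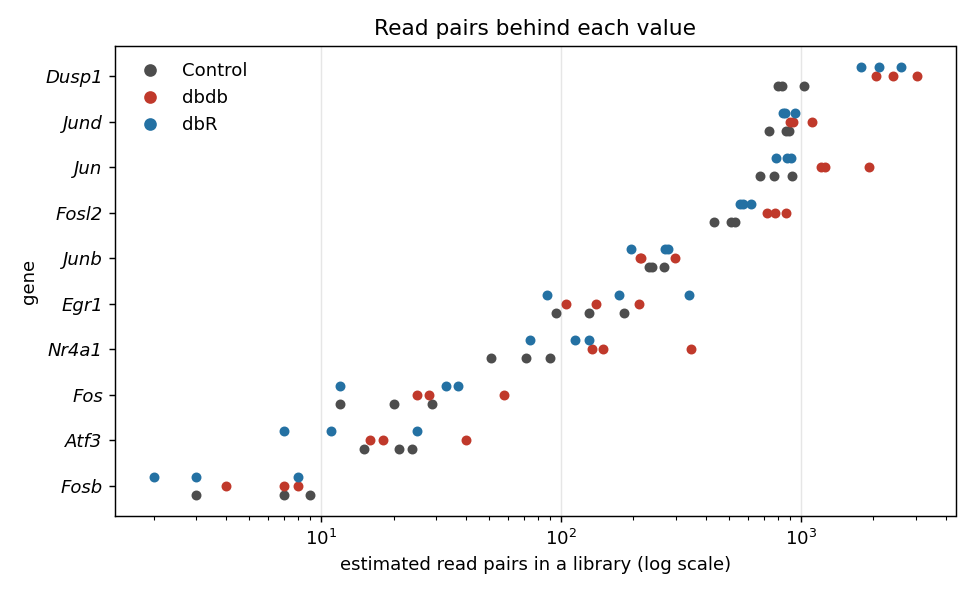
Estimated read pairs behind the value of each gene in each library (log scale, 1 point per library, colored by group). Dusp1, Jun, Jund and Fosl2 lie at 435 or more in every library, whereas Fos, Atf3 and Fosb lie at 58 or fewer.

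The first comparison asked how the diabetic cortex differed from the control cortex. Dusp1, Nr4a1, Jun, Fosl2 and Jund rose in the dbdb group, and in each of the 5 all dbdb libraries lay above all control libraries. Fos, Egr1, Atf3 and Junb did not pass the test. Of the 9 members tested, 5 were higher at an adjusted p under 0.05 (limma on log2(FPKM + 0.1), two-sided, Benjamini-Hochberg over 14537 genes), whereas 13.1% of all genes tested were higher and 26.4% changed in either direction. Without overlap, 5 of 9 were higher, against 21.2% of all genes. The median log2 fold change of the 9 was 0.71, against -0.00 over all genes, and it was 0.41 without dbdb 3, 0.46 without Control 3 and 0.29 with a pseudocount of 1. Of all genes called, 1899 of 3840 were higher. With mitochondrial genes left out and the rest scaled to the same sum in every library, 3489 of 4456 were higher. There the median over all genes was 0.15 and that of the members 0.86. Before that scaling, the summed mRNA FPKM was 675346 to 730057 in control and 594838 to 647995 in dbdb. The mitochondrial share was 28.2% to 30.0% in control and 28.2% to 30.1% in dbdb. With 3 libraries against 3, the exact permutation test of a single gene cannot go below 0.1, and it gave p = 0.1 for each of the 5.

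**Figure D2:**
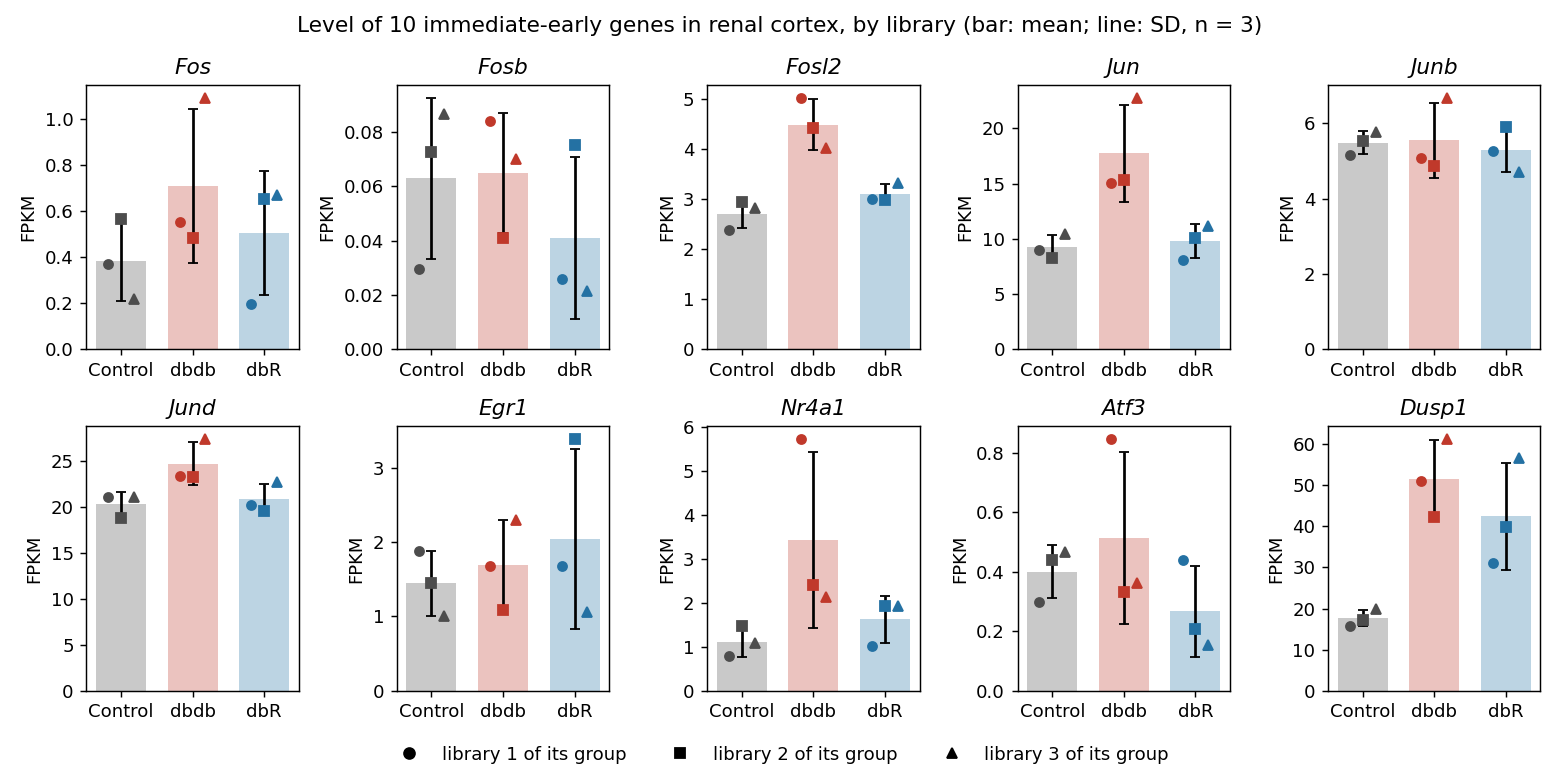
FPKM of the 10 genes in the 9 libraries (points, shaped by replicate number), with the mean of each group (bar) and its SD (line, n = 3); each panel has its own axis from 0. Dusp1, Nr4a1, Jun, Fosl2 and Jund are higher in all dbdb than in all control libraries. In dbR, Dusp1 and, by little, Fosl2 lie above all control libraries.

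Among the Fos proteins, Fosl2 (Fra-2), which forms a longer-lived AP-1 than Fos does, was at 2.38, 2.94 and 2.83 FPKM in the control libraries and at 5.04, 4.42 and 4.03 in dbdb. The groups were well separated, with a log2 fold change of 0.71 (SE 0.12, adjusted p = 0.00200 by limma). Fos itself was at 0.371, 0.565 and 0.217 FPKM in control and at 0.553, 0.481 and 1.09 in dbdb. A single library, dbdb 3, was above all control libraries, the other two lay within their range, and the log2 fold change of 0.73 had a 95% confidence interval from -0.23 to 1.69 (adjusted p = 0.240 by limma). Fosb was at 0.0295 to 0.0865 FPKM in control and at 0.0409 to 0.0838 in dbdb. Summed over the 3 genes, the Fos family amounted to 3.16 ± 0.40 FPKM in control and 5.27 ± 0.37 in dbdb (SD, n = 3), most of it Fosl2.

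Among the Jun proteins, Jun, the strongest activator of the family, was at 9.02, 8.29 and 10.4 FPKM in control and at 15.1, 15.4 and 22.8 in dbdb. Every dbdb library exceeded the highest control library, and the log2 fold change was 0.91 (SE 0.17, adjusted p = 0.00388 by limma). Jund, which is expressed at a steady level in most resting tissues, was at 21.0, 18.8 and 21.0 FPKM in control and at 23.3, 23.3 and 27.4 in dbdb. The groups did not overlap but lay close together, and the log2 fold change was 0.28 (SE 0.087, adjusted p = 0.0389 by limma). The call on Jund held in 13 of 20 alternative analyses, and its adjusted p (limma) ranged from 0.00582 to 0.124 over the 20. With a library left out, it was lost without Control 1, 2 or 3 and without dbdb 2 or 3. Among the other alternatives, it was lost without a filter, at an adjusted p of 0.0503 (limma). In addition, 52.6% of the exonic bases of Jund are shared with Gm11175, a gene on the opposite strand that was at 56.7 to 61.9 FPKM in control and at 64.4 to 71.1 in dbdb. The sources used here do not say whether strand was used in assigning the reads, so the value of Jund is uncertain to that extent. Junb, which can oppose Jun at shared sites, was at 5.16, 5.52 and 5.76 FPKM in control and at 5.08, 4.88 and 6.68 in dbdb. The ranges overlapped, and the interval of the log2 fold change was -0.28 to 0.29 (adjusted p = 0.985 by limma).

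Among the other transcription factors, Nr4a1 (Nur77) was at 0.789, 1.47 and 1.07 FPKM in control and at 5.72, 2.41 and 2.12 in dbdb. All dbdb libraries were higher, dbdb 1 by far the most, and the log2 fold change was 1.44 (SE 0.38, adjusted p = 0.0193 by limma). Without dbdb 1 the log2 fold change was 1.0, and without Control 1 or Control 3 the adjusted p rose to 0.0646 and 0.0508 (limma). Nr4a1 and Jund each have 1 transcript in the files, and when the 29362 transcripts were tested in place of genes their adjusted p-values were 0.0661 and 0.0916 (limma), whereas Dusp1, Jun and Fosl2 remained called. Egr1 was at 1.88, 1.46 and 1.0 FPKM in control and at 1.69, 1.09 and 2.30 in dbdb. The groups overlapped, and the interval of its log2 fold change of 0.20 was -0.68 to 1.07 (adjusted p = 0.751 by limma). Of the Egr1 FPKM, 68.8% was assigned to 1 of its 2 transcripts and 31.2% to the other. Atf3, a stress-induced repressor, was at 0.298, 0.438 and 0.465 FPKM in control and at 0.846, 0.330 and 0.363 in dbdb. Only dbdb 1 was above the control range, and the log2 fold change of 0.21 had an interval from -0.60 to 1.03 (adjusted p = 0.704 by limma).

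Dusp1, the negative feedback arm, had the lowest p-value of the members in dbdb vs. control. It was at 15.9, 17.3 and 19.8 FPKM in control and at 51.0, 42.3 and 61.4 in dbdb. Every dbdb library was far above the highest control library, and the group means were 17.7 ± 2.01 and 51.5 ± 9.55 FPKM (SD, n = 3). The log2 fold change was 1.53 (SE 0.20, adjusted p = 0.000562 by limma), a fold of 2.89 with a 95% confidence interval from 2.11 to 3.94. Dusp1, Jun and Fosl2 passed the threshold in all 20 alternative analyses.

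The second comparison asked how rosiglitazone treatment differed from vehicle in db/db mice. In the dbR libraries Jun, Fosl2, Jund and Nr4a1 were lower than in all dbdb libraries, but no member passed the adjusted threshold. Called were 0 of 9 members (limma), against 0.743% of all genes tested. At an unadjusted p under 0.05 there were 4 of 9, all lower, whereas 8.05% of all genes were lower at that level. The same 4 lay below the dbdb group without overlap, as did 11.9% of all genes. The median log2 fold change of the members was -0.47, against -0.00 over all genes, and it was -0.17 without dbdb 3, -0.22 without dbR 1 and -0.25 with a pseudocount of 1.

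**Figure D3:**
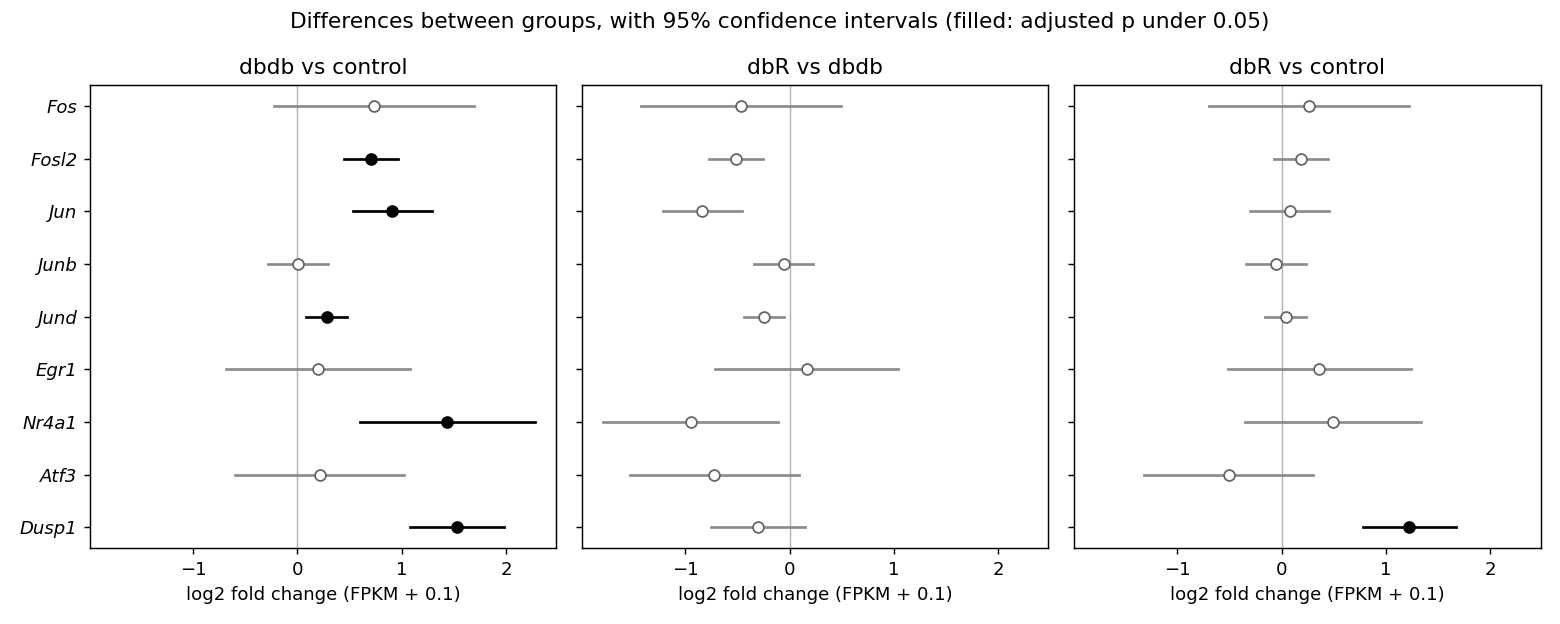
Log2 fold change on the log2(FPKM + 0.1) scale with its 95% confidence interval for the 9 members tested in the 3 comparisons; filled points have an adjusted p under 0.05. The 5 filled points of dbdb vs. control lie between 0.28 and 1.53, dbR vs. dbdb has no filled point, and Dusp1 alone is filled in dbR vs. control.

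Jun was at 8.12, 10.1 and 11.2 FPKM in dbR. These values lay entirely below the dbdb range, with a log2 fold change of -0.84 (SE 0.17, unadjusted p = 0.000619, adjusted p = 0.0554 by limma). This result sat at the threshold: Jun was called in 4 of 20 alternatives, and its adjusted p ranged from 0.0413 to 0.200 over the 20. Fosl2 was at 3.00, 2.98 and 3.33 FPKM in dbR. All were below the lowest dbdb library, with a log2 fold change of -0.52 (SE 0.12, adjusted p = 0.0708 by limma).

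Nr4a1 was at 1.01, 1.92 and 1.93 FPKM in dbR, with a log2 fold change of -0.95 (SE 0.38, adjusted p = 0.234 by limma). The highest dbR library was only just under the lowest dbdb library, and without dbdb 1 the log2 fold change was -0.51. Jund was at 20.2, 19.5 and 22.7 FPKM in dbR, again close to the dbdb range, with a log2 fold change of -0.24 (adjusted p = 0.191 by limma). Gm11175, on the opposite strand, was at 53.6 to 62.1 FPKM there.

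Dusp1 in dbR was at 31.0, 39.8 and 56.6 FPKM. The dbR libraries were widely spread and overlapped the dbdb range, and the log2 fold change of -0.31 had an interval from -0.75 to 0.14 (adjusted p = 0.470 by limma). Fos was at 0.196, 0.654 and 0.669 FPKM (log2 fold change -0.47), Atf3 at 0.440, 0.208 and 0.152 FPKM (-0.72) and Egr1 at 1.68, 3.39 and 1.05 FPKM (0.16). Each of these 3 overlapped the dbdb range, and their adjusted p-values were 0.616, 0.340 and 0.871 (limma). Junb was at 5.27, 5.90 and 4.72 FPKM in dbR, and the interval of its log2 fold change was -0.34 to 0.23. Fosb was at 0.0215 to 0.0751 FPKM.

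The third comparison set the rosiglitazone-treated diabetic cortex against the control cortex. Dusp1 was the only member that passed the test, with 1 of 9 members higher against 12.3% of all genes (24.1% in either direction). Its 3 dbR libraries lay above all control libraries, and the log2 fold change was 1.22 (SE 0.20, adjusted p = 0.00210 by limma). Fosl2 also lay above the control range in all 3 dbR libraries, by little (log2 fold change 0.19, adjusted p = 0.271 by limma), so that 2 of 9 members were higher without overlap, against 20.8% of all genes. The intervals of the log2 fold change were -0.30 to 0.45 for Jun, -0.16 to 0.23 for Jund, -0.34 to 0.23 for Junb and -0.35 to 1.33 for Nr4a1, so a sizeable difference in Nr4a1 lay within its interval. The log2 fold changes of Egr1 (0.36), Fos (0.26) and Atf3 (-0.51) did not pass the test, and the median over the members was 0.19 (0.028 without dbR 3, 0.047 without dbR 2 and 0.10 without Control 1), against -0.00 over all genes. The 3 comparisons share libraries, so their values are not independent of each other.

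Within the members, libraries did not rank the genes alike. Standardised over the 9 libraries and averaged over the 9 members tested, the profile was highest in dbdb 3 (1.19) and dbdb 1 (0.85), at 0.16 in dbdb 2, and between -0.68 and 0.10 in the 6 control and dbR libraries. Jun, Jund, Junb, Fos and Dusp1 were highest in dbdb 3, whereas Fosl2, Nr4a1 and Atf3 were highest in dbdb 1 and Egr1 in dbR 2. As a description over 9 libraries that include the group differences, the closest pairs were Jun with Jund (Pearson r = 0.94) and Fosl2 with Nr4a1 (r = 0.91). Dusp1 was closest to Fosl2 (r = 0.76), Fos to Jun (r = 0.65), Junb to Egr1 (r = 0.57) and Atf3 to Fosl2 (r = 0.41). Outside the members, the genes whose levels followed this mean profile most closely were 2310057M21Rik (r = 0.96), Adm (0.95), Ctgf (0.94), Pdk4 (0.94), Taf1a (0.93), Bicd2 (0.93), Mad2l2 (0.92) and Decr2 (0.92).

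Other primary-response genes were examined beside the members. Of 50 such genes 45 were tested, and 19 rose and 2 fell in dbdb vs. control (42.2% and 4.44%, against 13.1% and 13.4% of all genes), with a median log2 fold change of 0.46. The 2 that fell were Ccl2 (-1.59) and Egr2 (-0.90), named here after their values were seen. Sgk1, a kinase that raises tubular sodium transport, was at 30.2, 35.3 and 35.4 FPKM in control and at 176, 165 and 297 in dbdb (log2 fold change 2.61, adjusted p = 0.000467 by limma). Plk3, a stress kinase, rose by 2.41 on the log2 scale, and the transcription factor Cebpb and the clock gene Per1 each rose by 1.48. In dbR vs. dbdb 0 of the 45 were called (limma). At an unadjusted p under 0.05, 16 were lower and 2 higher, against 8.05% and 9.43% of all genes. The lowest p-values belonged to Mcl1, an anti-apoptotic protein (log2 fold change -0.43, adjusted p = 0.0516 by limma), and Plk3 (-1.69, adjusted p = 0.0517). In dbR vs. control 12 were higher (26.7%, against 12.3% of all genes), among them Sgk1 (1.80), the mRNA-destabilizing protein Zfp36 (1.08) and Per1 (0.95). The 3 that were lower were the growth factor Hbegf (-1.12), Cyr61 (-0.92) and Plk2 (-0.51).

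**Figure D4:**
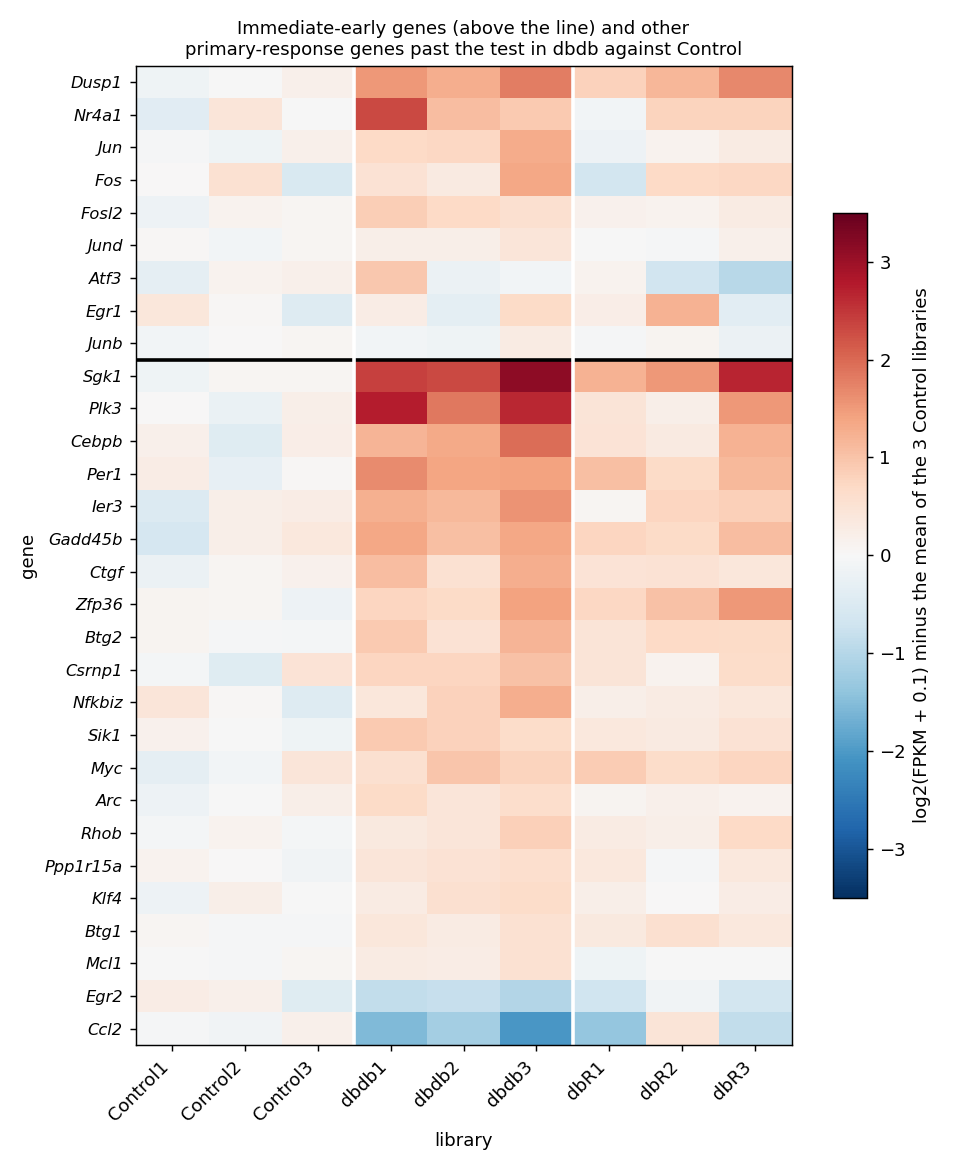
log2(FPKM + 0.1) in each library minus the mean of the 3 control libraries, for the 9 members tested (above the line) and the 21 other primary-response genes past the test in dbdb vs. control; red is higher and blue lower. These 21 were selected on the control and dbdb libraries. Dusp1 and Sgk1 remain red in all 3 dbR libraries, while Jun, Fosl2 and Jund are pale there.

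Genes that act with the members were taken as 4 lists. Of 16 other bZIP proteins that pair with Fos, Jun or Atf3, 4 rose and 1 fell in dbdb vs. control (median 0.06), or 31.3% called against 26.4% of all genes. Among them the AP-1 repressor Jdp2 (0.77), Maf (0.29) and Atf7 (0.26) were higher, and Atf2 (-0.26) was lower. In dbR vs. control 3 of these were higher and 1 lower, namely Jdp2 (0.50), Atf7 (0.47), Maf (0.30) and Atf4 (-0.44). Of 28 kinases, factors and coactivators upstream of immediate-early promoters, 5 rose and 2 fell in dbdb vs. control, or 25.0% called against 26.4% of all genes. The ERK-activated kinase Rps6ka1 (0.83), Map2k1 (0.47), Mapkapk3 (0.44), Mapk3 (0.25) and Mapkapk2 (0.23) were higher, and Braf (-0.49) and Rps6ka3 (-0.35) were lower. Of 10 other MAP kinase phosphatases of the Dusp family, Dusp5 (1.01) and Dusp8 (0.70) rose and Dusp4 (-0.62) and Dusp14 (-0.54) fell, or 40.0% called. A list of 10 mostly corepressors and deadenylase subunits that restrain Egr1 or Fos also held Per2, a circadian repressor that is not known for that role. Of the 10, Per2 (1.20) and Tob2 (1.17) rose and Nab1, a corepressor of Egr1, fell (-0.39), or 30.0% called. In dbR vs. dbdb Per2 was the only gene of these 4 lists that was called (-0.49, adjusted p = 0.0282 by limma). In dbR vs. control, where 24.1% of all genes were called, 6 of the 28 upstream genes were (21.4%), as were Dusp4 (-0.43) of the 10 phosphatases and Per2 (0.71), Nab1 (-0.37), Cnot7 (-0.28) and Cnot8 (-0.27) of the corepressor list.

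Of 24 textbook target genes of AP-1 or Egr1 that were tested, 8 rose and 7 fell in dbdb vs. control (median 0.10), or 62.5% called against 26.4% of all genes. Spp1 (osteopontin, 1.52) and the metallothioneins Mt1 (1.47) and Mt2 (1.26) were higher, and Plau (urokinase, -1.53) was lower, so the targets did not share a direction. In dbR vs. dbdb 0 of the 24 were called (limma), with 5 higher and 9 lower at an unadjusted p under 0.05, against 9.43% and 8.05% of all genes. The lowest p-values were those of the cell cycle gene Ccnd1 and of tissue factor F3 (both -0.56). In dbR vs. control 7 were higher and 7 lower, or 58.3% called against 24.1% of all genes. Heat-inducible chaperones, which often accompany immediate-early genes in stressed tissue, had 0 of 11 higher and 6 lower in dbdb vs. control (54.5% called, all lower, against 13.4% of all genes), with Hsph1 at -0.85 and Dnaja1 at -0.75. None of the 11 was called in dbR vs. dbdb (limma), with Hspe1 (0.32) higher and Hspb1 (-0.45) lower at an unadjusted p under 0.05. In dbR vs. control 5 were lower (45.5%, against 11.8% of all genes), among them Hsph1 (-1.01), Dnaja1 (-0.69), Dnajb1 (-0.62) and Hspd1 (-0.48). Glucocorticoid-responsive and clock-output genes, a list that shares Per1, Per2 and Mt2 with those above, had 6 of 12 higher and 3 lower in dbdb vs. control (75% called against 26.4% of all genes, median 0.64). Zbtb16 (2.78) and Fkbp5 (1.85), both targets of the glucocorticoid receptor, differed most, and the 3 that were lower were the clock-output genes Nr1d1 (-1.25), Dbp (-0.52) and Nr1d2 (-0.30). In dbR vs. dbdb only Per2 was called (8.33%, against 0.743% of all genes), and in dbR vs. control 6 were higher and 3 lower (75% called, against 24.1% of all genes). Dusp1, Sgk1 and Per1 are also known to respond to glucocorticoids. The part that glucocorticoids, feeding or the hour of tissue collection had in the levels of the members was not tested.

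Cell type markers moved with the groups, in both directions. The summed FPKM of 7 renal tubule markers was 2379 to 2730 in control, 2769 to 3082 in dbdb and 2786 to 2972 in dbR, and that of 5 podocyte markers was 73.4 to 83.8, 86.0 to 92.3 and 79.4 to 96.6. Both sums were higher in dbdb than in control without overlap, as the 5 called members were. Of the single markers, 3 of 7 and 2 of 5 were called higher, against 13.1% of all genes, and 0 lower. A negative log2 fold change was seen in 2 of 7 tubule markers and 1 of 5 podocyte markers. That podocyte marker lay below all control libraries. The 5 endothelial markers summed to 101 to 110 FPKM in control, 74.3 to 81.3 in dbdb and 105 to 125 in dbR, and 6 macrophage markers to 40.8 to 48.4, 20.2 to 35.2 and 28.6 to 37.6. These sums were lower in dbdb than in control without overlap, and 4 of 5 and 4 of 6 markers were called lower, against 13.4% of all genes. Endothelial and stromal markers were called higher in dbR vs. dbdb (3 of 5 and 1 of 6), where 0 of 9 members and 0.743% of all genes were called. Adrenal markers (6 genes) summed to 0.193 to 0.326 FPKM in control, 0.913 to 1.08 in dbdb and 0.622 to 1.24 in dbR. Of the 6, 4 had a mean below 0.1 FPKM, with Cyp11b1 and Cyp11b2 at 0 in all 9 libraries. The sums thus rest on few genes of low level, and 1 of the 2 tested was called higher in dbdb vs. control. Neutrophil markers (5 genes) summed to 2.5 to 4.38, 3.88 to 6.85 and 5.15 to 8.62 FPKM, and lymphocyte markers (7 genes) to 1.3 to 2.51, 0.431 to 0.869 and 0.813 to 1.22. Stromal markers (6 genes) summed to 26.0 to 45.8, 23.5 to 34.3 and 30.8 to 40.6 FPKM, adipocyte markers (5 genes) to 0.294 to 2.64, at most 0.10 and 0.0767 to 0.701, and red cell markers (5 genes) to 7.79 to 104, 6.73 to 17.5 and 10.3 to 18.2. The part of these cells in the levels of the members was not tested, and in whole cortex a change in the number of cells of a type cannot be told apart from a change of RNA per cell.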

How the data were processed

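RNA-seq libraries of the renal cortex were used, 1 per mouse and 3 per group. After ribosomal RNA was removed, the authors made directional libraries from TRIzol-extracted RNA and sequenced read pairs on an Illumina HiSeq instrument. Reads were aligned to GRCm38.p2 with TopHat 2.0.9 and assembled with Scripture and Cufflinks 2.1.1. The deposited values are the FPKM of each transcript as Cufflinks gave it, so length and library size are already accounted for, and where transcripts or genes overlap the value depends on how Cufflinks divided their reads. Whether strand was used in that step and at which hour the tissue was taken is not given in the sources used here.

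Transcript FPKM was summed per gene. Genes with a mean of at least 0.1 FPKM over the 9 libraries (14537, 9 of the 10 members) were fitted as log2(FPKM + 0.1) with limma 3.58.1 (R 4.3.3) in 1 model of 3 groups, with a variance trend. The p-values are two-sided, with Benjamini-Hochberg adjustment over all genes of a comparison, and a gene was called at an adjusted p under 0.05. On this scale the fold change of a low gene comes out too small. The same fit was run on single transcripts. Single genes were also compared with an exact permutation test of 3 against 3. FPKM holds no counts, so no count test was used. The depth and read pairs were estimated from the steps between low FPKM values and cover counting error only. The limma fit was also tested on simulated data, with independent values and log2 shifts larger than those of most members. That test does not bear on smaller differences.

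The text names the 10 members. In each other list it names up to 4 called genes with the largest change among those with a mean of at least 1 FPKM or, with none called, up to 2 with the lowest p. A result that falls under this rule is not reported here. It also names the 8 genes most correlated with the mean member profile. The members and all lists were chosen with earlier results of these data known. Hsp90aa1, Gm11175 and genes given beyond these rules in counts of 5 or fewer were chosen after their values were seen. The alternatives were other pseudocounts, filters and scalings, a fit to 6 libraries, a replicate block and a robust fit. Adjustment together with lncRNA genes and each library left out were also among them. The scaling without mitochondrial genes also brought the rest to the same sum in every library. The lists held 50 other primary-response genes (Cebpd was not analysed here), 16 partners, 28 upstream genes, 10 phosphatases, 10 corepressors and deadenylase subunits (with Per2), 26 targets, 11 chaperones, 12 glucocorticoid or clock genes, and markers of 10 cell types. GENCODE exons served for overlaps and the start of the sequences shown. Calculations outside R used python 3.11.15, numpy 2.4.6 and pandas 2.3.3, and figures matplotlib 3.10.9.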

Additional observations from a re-analysis of the deposited data

How the results depend on the processing

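Direction and side of the threshold held for Dusp1, Jun and Fosl2 in dbdb vs. control and for Dusp1 in dbR vs. control under all 20 alternatives. The number of all genes called in dbR vs. dbdb was 108 and became 31 without a filter, 166 at a mean FPKM of at least 1, 203 with scaling to the 75th percentile, 234 with quantile normalization, 22 with only the 6 libraries, 166 with a robust fit, 63 with lncRNA genes included and 2 to 141 with a library left out (2 without dbR 2, 10 without dbR 3). In dbdb vs. control it was 2761 to 3830 with a library left out, and in dbR vs. control 2479 to 3569. With mitochondrial genes left out and the rest scaled to the same sum, 52 of 107 calls of dbR vs. dbdb were higher. In the main fit 82 of 108 were. For dbR vs. control these counts were 2404 of 3410 and 1786 of 3497. Members called in dbR vs. dbdb were 1 instead of 0 (Jun) at a mean FPKM of at least 1 and with 75th-percentile scaling. The same held with mitochondrial genes left out and the rest scaled to the same sum. With a library left out, members called were 3 to 5 in dbdb vs. control (3 without Control 1 or Control 3, which lost Jund and Nr4a1), 0 in dbR vs. dbdb and 1 in dbR vs. control. The median of the members in dbdb vs. control was 0.29 with a pseudocount of 1, 0.49 without a filter and 0.41 to 0.76 with a library left out. In dbR vs. dbdb it was -0.25 with a pseudocount of 1 and -0.53 to -0.17 with a library left out, and in dbR vs. control 0.03 to 0.25.

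Directions that turned all belonged to differences that had not passed the test. In dbdb vs. control, Junb was -0.051 with quantile normalization and -0.14 to 0.088 with a library left out (below 0 without Control 1 or dbdb 3), Egr1 -0.043 to 0.46 (below 0 without Control 3 or dbdb 3) and Atf3 -0.15 to 0.42 (below 0 without dbdb 1). In dbR vs. dbdb, Egr1 was -0.27 to 0.53 (below 0 without dbdb 2 or dbR 2) and Junb -0.14 to 0.083 (above 0 without dbdb 3 or dbR 3). In dbR vs. control, Junb was 0.041 without mitochondrial genes and -0.13 to 0.027 with a library left out (above 0 without dbR 3), Jund -0.028 to 0.080 (below 0 without Control 2 or dbR 3), Fos -0.010 to 0.72 (below 0 without Control 3), Egr1 -0.069 to 0.73 (below 0 without dbR 2) and Jun -0.024 to 0.20 (below 0 without dbR 3). The cause was not tested.

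Replicate numbers are shared by the groups, but same-numbered libraries did not deviate together (correlations of -0.17 to 0.06). Libraries with different numbers had correlations of -0.11 to 0.17. These values cannot show whether the samples were paired, and the main fit treated them as unpaired. With the replicate block, 23 genes and 1 member (Jun, adjusted p = 0.0413 by limma) were called in dbR vs. dbdb. Fos, Atf3 and Fosb rest on 58 or fewer read pairs per library, and the SE of the log2 fold change was 0.43 for Fos and 0.36 for Atf3. Without the filter, Fosb had a log2 fold change of 0.03 in dbdb vs. control.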
